A study of Mus musculus with 3 samples.

Results

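The 9 genes described here write, keep and remove methylation of cytosine in DNA. They are the methyltransferases Dnmt1, Dnmt3a and Dnmt3b, the catalytically inactive partner Dnmt3l, the maintenance factor Uhrf1, the oxidases Tet1, Tet2 and Tet3, and the glycosylase Tdg. They were chosen by gene symbol, without use of their values but with earlier results of these data known, from a table of 25346 genes. The level of a gene was the FPKM (fragments per kilobase of transcript, scaled to the mapped fragments of the library) of all its first exons, or of all its last exons where that was larger. Of the 9 genes, 7 stood under their own name in all 3 samples. The other 2, Dnmt3b and Dnmt3l, lay in some samples in a locus listed under 2 gene names, and they are given by the first exons of that locus and counted apart.

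RNA-seq was carried out on 3 lines of mouse embryonic stem (ES) cells of strain C57BL/6, with 1 sample each. The first was wild type (WT). The second was Pcgf1-/- (Pcgf1KO in the labels), in which Cas9 and a pair of guides had been used against exons of Pcgf1, a subunit of a variant Polycomb repressive complex, and which came from cells seeded to form single colonies. The third was Pcgf1-/-+Pcgf1 (Pcgf1KO+Pcgf1_flag in the labels), the mutant cells after lentiviral delivery of Pcgf1 with a Flag tag and selection with puromycin, here also called the re-expressing cells. All 3 were grown with serum and leukemia inhibitory factor on inactivated mouse embryonic fibroblasts, and no step that removes these feeder cells before RNA extraction was found in the methods. With 1 sample per genotype there is no replicate error and no test, so a difference below compares libraries, and genotype, clone, viral infection and culture cannot be told apart. The 3 comparisons share samples, and each is given by its own values.

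Methyl groups on cytosine are set by Dnmt3a and Dnmt3b at CpG sites that carry none, and Dnmt3l stimulates both. After replication, Uhrf1 recognises DNA with a methyl group on only the old strand and brings Dnmt1, which methylates the new one. Tet enzymes oxidise the methyl group, and Tdg cuts out the most oxidised bases, which base excision repair then replaces with plain cytosine. ES cells in serum hold highly methylated DNA and express the enzymes of both directions. Promoters of genes for germ cells are a known class of sites that DNA methylation keeps silent in other cells.

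The sequences shown first are promoters of Tet2 and Dnmt3l, the genes beyond 2-fold in a comparison below, and of both forms of Dnmt3a, the gene with the largest ratio of Pcgf1-/- to WT, and then coding segments that only some transcripts included. The promoters are from RefSeq on GRCm38.p6, the assembly of mm10, and are the bases before the annotated start, 5′ to 3′, with each CpG in capitals. All 9 genes matched the RefSeq table, with 16 promoters. That of the short form of Dnmt3a is printed only up to the first exon at position 3891728, as 234 bases. The Tet2 promoter is chr3:133544391-133544640 on the minus strand. The promoter shown for the long form of Dnmt3a, which has another RefSeq start, is chr12:3806730-3806979 on the plus strand. That of its short form is chr12:3891494-3891727 on the plus strand, and that of Dnmt3l is chr10:78049592-78049841 on the plus strand.
Tet2: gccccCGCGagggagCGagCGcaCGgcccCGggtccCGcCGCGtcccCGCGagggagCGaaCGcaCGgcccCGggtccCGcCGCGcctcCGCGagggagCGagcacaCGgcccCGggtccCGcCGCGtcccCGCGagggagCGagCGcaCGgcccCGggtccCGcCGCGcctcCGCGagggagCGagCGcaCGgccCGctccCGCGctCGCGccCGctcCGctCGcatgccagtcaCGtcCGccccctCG
Dnmt3a long form: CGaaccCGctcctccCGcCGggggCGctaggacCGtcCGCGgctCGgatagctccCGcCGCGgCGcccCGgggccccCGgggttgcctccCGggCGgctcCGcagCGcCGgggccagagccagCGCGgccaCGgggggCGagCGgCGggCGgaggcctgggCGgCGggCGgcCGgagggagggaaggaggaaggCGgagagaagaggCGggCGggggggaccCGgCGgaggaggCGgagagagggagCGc
Dnmt3a short form: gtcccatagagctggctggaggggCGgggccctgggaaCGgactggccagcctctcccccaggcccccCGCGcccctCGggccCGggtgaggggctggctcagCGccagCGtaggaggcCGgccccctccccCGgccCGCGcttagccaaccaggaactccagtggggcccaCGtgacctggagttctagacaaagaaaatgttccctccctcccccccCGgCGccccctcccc
Dnmt3l: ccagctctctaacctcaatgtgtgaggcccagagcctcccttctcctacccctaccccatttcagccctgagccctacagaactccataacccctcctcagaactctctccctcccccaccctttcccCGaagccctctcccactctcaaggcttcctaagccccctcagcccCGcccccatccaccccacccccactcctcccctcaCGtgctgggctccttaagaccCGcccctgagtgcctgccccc

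CpG sites, which read CG on both strands, were counted in the 250 bases before each start. Tet2 held 51 of them, and 0.067% of all 32851 promoters held as many. The long form of Dnmt3a held 38 (1.88% of promoters held as many), its short form 15 (27.3%) and Dnmt3l 4 (62.2%). Another RefSeq start of the long form, at position 3807160 and with its promoter not shown, held 40 (1.31%). All long-form FPKM in WT and the re-expressing cells came from a first exon at this position, as did 5.73 of 6.98 FPKM in Pcgf1-/-. No first exon above 0 began at position 3806980, just after the long-form promoter shown. The median was 16 over the 16 promoters of the 9 genes and 6 over all promoters, and 11 of the 16 held at least 10, as did 37.8% of all. The promoter sequence is a description and its methylation was not measured here.

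The coding segments are from GENCODE vM21 transcripts, with the variable bases in capitals between 30 bases of the neighbouring exons. In Dnmt3b they are the 22nd and 23rd of 24 exons, within chr2:153683608-153684477, and hold 189 bases or 63 codons. In Tet2 the segment is 1 exon of 24 bases at chr3:133479342-133479365 on the minus strand. In Uhrf1 it is the first 24 bases of an exon, at chr17:56313041-56313064. Each length is a multiple of 3, so that both forms keep the reading frame.
Dnmt3b: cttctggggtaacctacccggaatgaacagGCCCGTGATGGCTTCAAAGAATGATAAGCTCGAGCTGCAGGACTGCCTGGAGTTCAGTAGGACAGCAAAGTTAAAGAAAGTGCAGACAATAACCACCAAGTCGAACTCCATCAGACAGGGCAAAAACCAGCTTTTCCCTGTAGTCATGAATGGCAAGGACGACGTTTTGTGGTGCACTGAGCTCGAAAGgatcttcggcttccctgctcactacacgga
Tet2: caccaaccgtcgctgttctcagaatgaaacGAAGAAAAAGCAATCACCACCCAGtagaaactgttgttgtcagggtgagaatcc
Uhrf1: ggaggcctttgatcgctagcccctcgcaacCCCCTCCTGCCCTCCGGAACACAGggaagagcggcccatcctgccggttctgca

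Pcgf1 itself summed to 13.95 FPKM in WT, 5.88 in Pcgf1-/- and 7.86 in the re-expressing cells. In Pcgf1-/- all of it (5.88) was in a form that joins exon 1 to exon 4, and this form was listed in neither of the other samples. The re-expressing cells were made from the mutant cells, and why the form was not listed there was not tested. Of 11 ES cell markers, 8 were measured, which together had 2075 FPKM in WT, 2042 in Pcgf1-/- and 1876 in the re-expressing cells. The step between the lowest FPKM values, a measure of what 1 fragment is worth, was 0.0472 to 0.0517 FPKM times kilobase, and so differed little between samples, while the depth itself is not given. A zero in the lists can be a failed estimate, since 57 genes above 5 FPKM in 1 sample stood at 0 in another, none of them among the 9. The last exons of Dnmt3a and Tdg stood at 0 in all 3 samples, so their levels rest on first exons alone.

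All 9 genes were expressed in all 3 samples (plot of levels). Dnmt3l was the highest in each sample, followed by Dnmt3b and Uhrf1, and Tet2 and Tet3 were the lowest. In WT the order below Uhrf1 was Dnmt1, Tdg, Tet1, Dnmt3a, Tet2 and Tet3. Without replicates it cannot be said which neighbours in this order differ. Tet1 was the main Tet gene, at 39.2 FPKM in WT against 2.33 for Tet2 and 1.86 for Tet3.

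**Figure D1:**
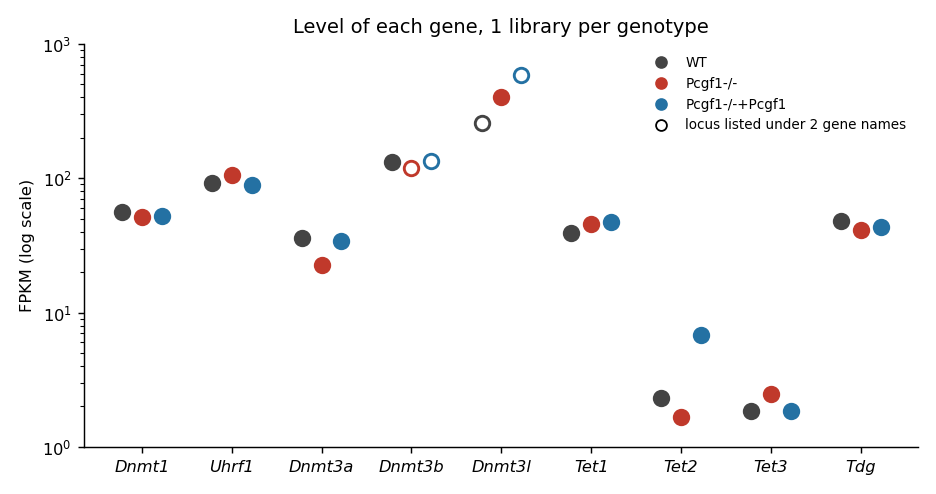
FPKM of each gene (log axis) in WT, Pcgf1-/- and Pcgf1-/-+Pcgf1, 1 point per library; open points are loci listed under 2 gene names. Dnmt3l rises from 260 in WT to 593 in Pcgf1-/-+Pcgf1, and Tet2 is at 6.76 in Pcgf1-/-+Pcgf1 against 2.33 and 1.67.

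Ratios were taken on the log2 scale after 0.1 was added to each FPKM, and a difference beyond 2-fold was called. Between Pcgf1-/- and WT, 0 of the 7 genes with their own name were called, beside 7.14% of all genes and 9.09% of those with at least 1 FPKM in either sample, as all 9 genes had. Between Pcgf1-/-+Pcgf1 and Pcgf1-/-, 1 of 7 was called (8.57% of all genes and 10.8% of those with at least 1 FPKM), and between Pcgf1-/-+Pcgf1 and WT also 1 of 7 (6.34% and 6.49%). The called gene was Tet2 both times, higher in Pcgf1-/-+Pcgf1. With the joined loci counted, Dnmt3l was also called, against WT only. As a measure of how far genes of at least 5 FPKM lay apart, the 5th to 95th percentile of their log2 ratios ran from -0.79 to 0.63 for Pcgf1-/- to WT, from -0.81 to 0.73 for Pcgf1-/-+Pcgf1 to Pcgf1-/-, and from -0.69 to 0.47 for Pcgf1-/-+Pcgf1 to WT.

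**Figure D2:**
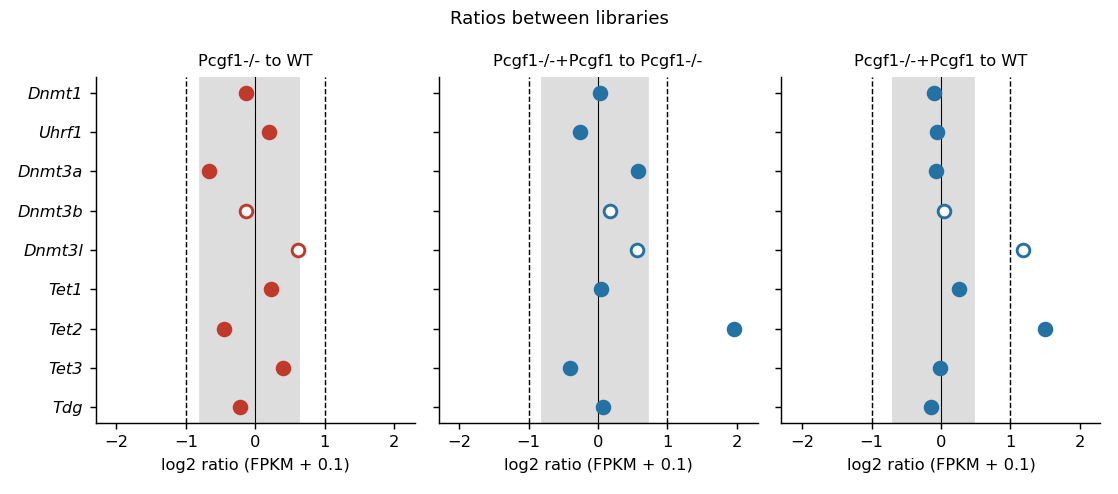
Log2 ratio of FPKM + 0.1 for each gene in the 3 comparisons. The grey band is the 5th to 95th percentile of genes with at least 5 FPKM, dashed lines mark 2-fold and open points rest on a locus listed under 2 names. Only Tet2 lies outside the dashed lines in the middle panel, at 1.96, and Tet2 and Dnmt3l do in the right panel, at 1.501 and 1.19.

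The maintenance pair was alike in the 3 samples. Dnmt1 (ENSMUSG00000004099, chromosome 9, 20907209 to 20959888, minus strand), the enzyme that copies methylation to the new strand, had 56.2 FPKM in WT, 51.4 in Pcgf1-/- and 52.4 in the re-expressing cells. On the log2 scale Pcgf1-/- differed from WT by -0.13. Uhrf1 (ENSMUSG00000001228, chromosome 17, 56303321 to 56323486, plus strand) had 92.3, 106 and 88.5 FPKM in the same order, with a ratio of 0.20. Both genes lay within the range of most genes in each comparison.

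Dnmt1 used a start at chr9 position 20952979, with 48.7 FPKM in WT, 51.4 in Pcgf1-/- and 52.4 in the re-expressing cells. A second annotated start, 6.91 kb upstream, had 7.48 FPKM in WT (13.3% of Dnmt1) and was listed at 0 in both other samples. Both starts lie before the start codon of the longest coding form. That codon lies within the 272-base first exon of the main start, 0.192 kb from its beginning. Uhrf1 used a pair of starts 0.992 kb apart, the upstream one with 52.4% of its FPKM in WT, 61.9% in Pcgf1-/- and 63.8% in the re-expressing cells.

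Of the de novo enzymes, Dnmt3a differed more between samples than Dnmt3b. Dnmt3a (ENSMUSG00000020661, chromosome 12, 3806007 to 3914443, plus strand) had 35.9 FPKM in WT, 22.7 in Pcgf1-/- and 34.1 in the re-expressing cells. It was lowest in Pcgf1-/- and alike in the other two. The log2 ratio was -0.66 for Pcgf1-/- to WT, 0.58 for Pcgf1-/-+Pcgf1 to Pcgf1-/- and -0.08 for Pcgf1-/-+Pcgf1 to WT, below 2-fold each time and inside the range of most genes. Of 6841 genes, those with the most similar pair of ratios (Pcgf1-/- to WT and Pcgf1-/-+Pcgf1 to Pcgf1-/-) were Fip1l1, 1300002E11Rik and Cab39l, 0.0133 to 0.0239 away on the log2 scale. Dnmt3b (ENSMUSG00000027478, chromosome 2, 153649450 to 153687730, plus strand) had 131 FPKM in WT, 119 in Pcgf1-/- and 135 in the re-expressing cells. In the last 2 samples its locus was listed together with Gm14490, a name for the neighbouring gene Dnmt3c, whose joined last exon stood at 0.0216 and 0.0224 FPKM, and none of the first exons lay in Dnmt3c.

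Dnmt3a is made as a long and a short form from different promoters. The short-form start at chr12 position 3891728 lies 84.6 kb downstream of the long-form start, in an intron, beyond 627 of the 2724 coding bases. It had 24.9 FPKM in WT, 15.7 in Pcgf1-/- and 30.6 in the re-expressing cells, which is 69.4%, 69.3% and 90.0% of Dnmt3a. A further start in the same intron, at position 3885449, had 6.51 FPKM in WT and was listed at 0 in both other samples. The short-form start alone gave a log2 ratio of -0.66 for Pcgf1-/- to WT. Both intronic starts together gave -0.996 (31.4 and 15.7 FPKM), and 0.96 for Pcgf1-/-+Pcgf1 to Pcgf1-/-. Whether the further start makes the short form was not tested. The long-form start had 4.47 FPKM in WT, 6.98 in Pcgf1-/- and 3.41 in the re-expressing cells, and its share was 30.7% in Pcgf1-/- against 12.4% and 10.02%. The dip of Dnmt3a in Pcgf1-/- was thus in the intronic starts. The long-form start had its highest value in Pcgf1-/-, with a log2 ratio of -1.01 for Pcgf1-/-+Pcgf1 to Pcgf1-/-.

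Dnmt3b was carried in WT by its annotated start alone, with 131 FPKM. In Pcgf1-/- and Pcgf1-/-+Pcgf1 this start had 85.2 and 88.8 FPKM. A short first exon ending at chr2 position 153642133, with 42 bases in Pcgf1-/- and 29 in the re-expressing cells and 7.35 kb upstream in the latter, where no GENCODE transcript starts, had 34.2 and 46.2 FPKM in these samples and was not listed in WT. It made up 28.7% and 34.2% of Dnmt3b. The sum of both starts lay between 119 and 135 in all samples, while the annotated start alone had a log2 ratio of -0.62 for Pcgf1-/- to WT. The upstream exon belongs to the loci that were listed together with Gm14490.

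Dnmt3l, the cofactor that lacks catalytic activity, had the highest level of the 9 genes, lowest in WT and highest in the re-expressing cells. It (ENSMUSG00000000730) lies on chromosome 10 from 78041947 to 78063622, plus strand. It had 260 FPKM in WT, 400 in Pcgf1-/- and 593 in the re-expressing cells. In each case this came from 2 first exons within 500 bases, counted as 1 start site. The first began at position 78049842, or at 78049806, within the promoter shown, in the re-expressing cells. It had 84.6, 119 and 179 FPKM in the same order. The second began at 78049959 and had 176, 281 and 413 FPKM. Dnmt3l was thus 1.54-fold higher in Pcgf1-/- than in WT, 1.48-fold higher in Pcgf1-/-+Pcgf1 than in Pcgf1-/-, and 2.28-fold higher in Pcgf1-/-+Pcgf1 than in WT. Its log2 ratio of Pcgf1-/-+Pcgf1 to WT, 1.19, lay beyond the 95th percentile of genes of at least 5 FPKM, and the other 2 ratios did not. In WT and Pcgf1-/-+Pcgf1 the locus was listed together with its neighbour Icosl, but no first exon lay in Icosl, whose own level was 5.04 in Pcgf1-/-. The joined last exon had 5.08 FPKM in WT and 4.89 in Pcgf1-/-+Pcgf1.

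**Figure D3:**
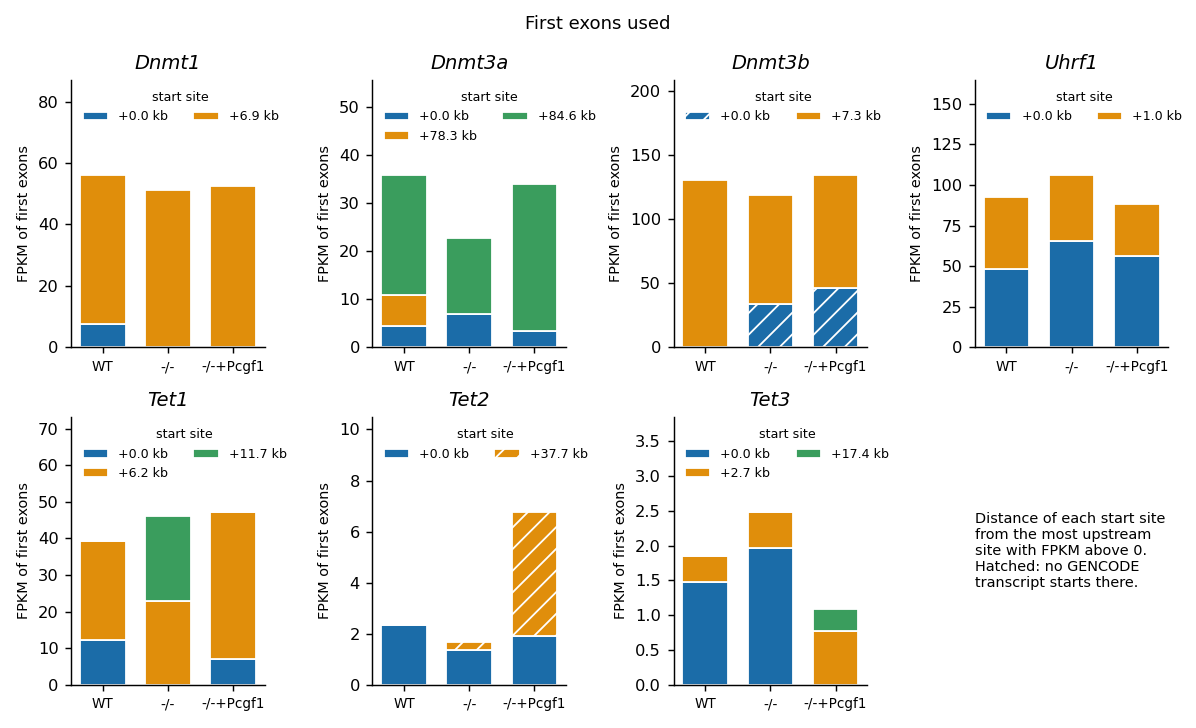
FPKM of first exons by start site for the 7 genes that used more than 1, in WT, Pcgf1-/- and Pcgf1-/-+Pcgf1. Colours are start sites by distance from the most upstream site above 0, and hatching marks sites with no GENCODE start; the hatched part of Tet2 is 4.87 FPKM in Pcgf1-/-+Pcgf1 and that of Dnmt3b is 34.2 and 46.2 FPKM.

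Among the oxidases, Tet2 stood out in Pcgf1-/-+Pcgf1. Tet2 (ENSMUSG00000040943, chromosome 3, 133463679 to 133545139, minus strand) had 2.33 FPKM in WT, 1.67 in Pcgf1-/- and 6.76 in the re-expressing cells. It was 3.88-fold higher in Pcgf1-/-+Pcgf1 than in Pcgf1-/- and 2.83-fold higher than in WT. Its log2 ratios, 1.96 and 1.501, lay beyond the 95th percentile of genes with at least 5 FPKM, while among genes of 1 to 5 FPKM, near which Tet2 lay, that percentile was 2.34 and 1.42. Most of the higher level came from 1 first exon. A first exon at chr3:133506613-133506666 in the re-expressing cells (54 bases, and 49 in Pcgf1-/-), where GENCODE has no start, was not listed in WT, had 0.307 FPKM in Pcgf1-/- (18.4% of Tet2) and 4.87 in Pcgf1-/-+Pcgf1 (72.0%). It lies 37.7 kb downstream of the annotated start, in an intron, and before the start codon of the longest coding form. The annotated start, below the promoter with 51 CpG sites, had 2.33 FPKM in WT, 1.36 in Pcgf1-/- and 1.89 in the re-expressing cells. Its log2 ratios were -0.73 for Pcgf1-/- to WT, 0.45 for Pcgf1-/-+Pcgf1 to Pcgf1-/- and -0.28 for Pcgf1-/-+Pcgf1 to WT, so the annotated start alone was not called in any comparison.

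Tet1 (ENSMUSG00000047146, chromosome 10, 62804570 to 62908996, minus strand), the main oxidase of ES cells, had 39.2 FPKM in WT, 46.0 in Pcgf1-/- and 47.2 in the re-expressing cells, with log2 ratios of 0.23, 0.04 and 0.27 in the order of comparisons above. Its start sites differed although its level did not pass 2-fold. The most upstream one had 12.1 FPKM in WT, 0 in Pcgf1-/- and 6.94 in the re-expressing cells. The one 6.24 kb downstream had 27.0, 22.8 and 40.2 FPKM, where the start in the re-expressing cells lay more than 50 bases from that in WT. The third, 11.7 kb downstream, had 23.2 FPKM in Pcgf1-/- and was not listed in the other samples. All 3 lie before the start codon.

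Tet3 (ENSMUSG00000034832, chromosome 6, 83362373 to 83459084, minus strand) had 1.86 FPKM in WT, 2.48 in Pcgf1-/- and 1.85 in the re-expressing cells. WT and Pcgf1-/-+Pcgf1 were nearly equal, and Pcgf1-/- differed from WT by a log2 ratio of 0.40. Its first start had 79.5% of first-exon FPKM in WT and 79.1% in Pcgf1-/- and was at 0 in Pcgf1-/-+Pcgf1, where the second had 70.6% and the third 29.4%. At these low values the first exons summed to 1.09 FPKM in Pcgf1-/-+Pcgf1 against 1.85 for the last exon, so part of its starts was not listed there. Tdg (ENSMUSG00000034674, chromosome 10, 82629828 to 82650799, plus strand), the glycosylase that acts after the Tet enzymes, had 48.2 FPKM in WT, 41.4 in Pcgf1-/- and 43.4 in the re-expressing cells from 1 start, and a log2 ratio of -0.22 for Pcgf1-/- to WT.

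In all, 38 start sites of the 9 genes were listed, counting starts within 500 bases as 1, and 19 had an FPKM above 0. Of these 19, the upstream exon of Dnmt3b and the intronic exon of Tet2 had no GENCODE start. Values by start site are estimates of the transcript assembler in 1 library each, and a start that one sample does not list may have been assigned to another there.

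Exon use was listed for 14 events with including and excluding forms, and both forms were above 0 for 3 of them. The pair of Dnmt3b exons near its 3′ end, shown above, was included in 75.3% of Dnmt3b FPKM in WT, 81.7% in Pcgf1-/- and 69.8% in the re-expressing cells. Skipping of these exons gives the known Dnmt3b form that lacks part of its catalytic domain. Another Dnmt3b exon, at chr2:153650785-153650899 and before the start codon, was included in 11.5%, 18.0% and 19.8% of the FPKM from the annotated start. The 24-base Tet2 exon was included in 75.5% of Tet2 FPKM in WT, 81.6% in Pcgf1-/- and 100% in the re-expressing cells, from values under 7 FPKM. The form of Uhrf1 without the 24 bases shown above was at 0 in WT and made up 18.7% in Pcgf1-/- and 17.7% in the re-expressing cells. No retained intron was listed for the 9 genes. Without replicates the spread of these shares is unknown.

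**Figure D4:**
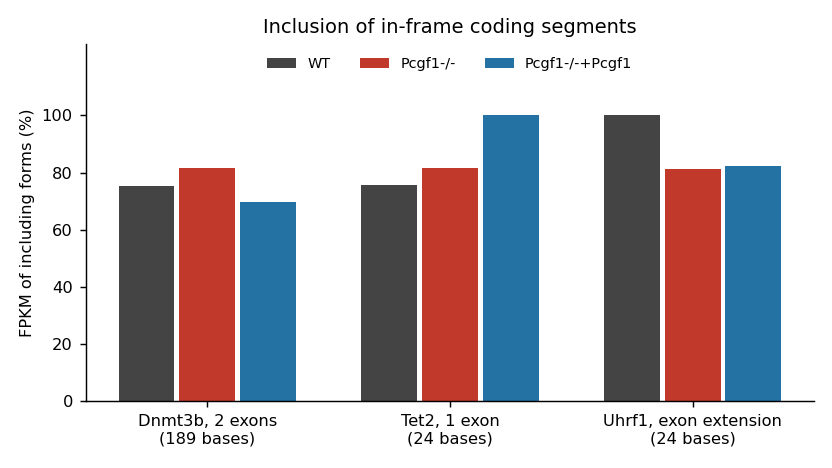
Share of FPKM (%) in transcripts that include a coding segment of Dnmt3b, Tet2 or Uhrf1, in WT, Pcgf1-/- and Pcgf1-/-+Pcgf1, 1 library each. Dnmt3b lies between 69.8% and 81.7%, and Tet2 goes from 75.5% in WT to 100% in Pcgf1-/-+Pcgf1.

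The wider pathway was given by 5 lists with 63 genes, of which 52 were measured under their own name. Between Pcgf1-/- and WT, 0 were higher and 2 lower beyond 2-fold, beside 2.16% and 4.98% of all genes, and the median log2 ratio was -0.09, as it was over the 9438 genes with at least 1 FPKM in either sample (-0.09). Gadd45g, a stress gene linked to active demethylation, had 8.59 FPKM in WT, 1.75 in Pcgf1-/- and 4.87 in the re-expressing cells. Dppa3, which binds Uhrf1, had 38.3, 17.5 and 60.1 FPKM. Both were lowest in Pcgf1-/-. Between Pcgf1-/-+Pcgf1 and Pcgf1-/-, these 2 were the higher ones (6.35% of all genes were higher), and 1, Cxxc4, was lower (2.22%). Cxxc4 was under 0.2 FPKM throughout and was named after its values were seen. Between Pcgf1-/-+Pcgf1 and WT, 0 of 52 were called (3.99% of all genes higher and 2.36% lower).

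By list, 0 of the 9 maintenance partners and 0 of the 7 readers were called in any comparison. Pcna, the sliding clamp to which Dnmt1 binds, had 236, 184 and 173 FPKM in WT, Pcgf1-/- and Pcgf1-/-+Pcgf1, and Mbd2, a reader of methylated CpG, had 6.96, 8.95 and 4.78. In the methyl donor list 0 of 12 were called, but Mat2a, which makes S-adenosylmethionine, had 76.3 FPKM in WT, 145 in Pcgf1-/- and 148 in the re-expressing cells, close to 2-fold above WT in both. Among 11 repair genes, Gadd45b had 12.5, 23.7 and 13.5 FPKM and Gadd45a 15.9, 10.1 and 15.7, opposite in direction to each other in Pcgf1-/-. Of 13 targeting genes, Ogt, a partner of the Tet enzymes, had 27.5, 18.1 and 23.99 FPKM.

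The germline genes, listed because promoter methylation is known to silence such genes, were higher in Pcgf1-/-+Pcgf1. Methylation of their promoters was not measured, and what keeps them low in these cells was not tested. All 12 of the list, which was chosen with earlier results of these data known, were measured. Between Pcgf1-/-+Pcgf1 and Pcgf1-/- 12 of 12 were higher beyond 2-fold with a median log2 ratio of 2.08, and between Pcgf1-/-+Pcgf1 and WT 11 of 12 were, with a median of 2.26, beside 6.35% and 3.99% of all genes. Among all genes of 1 to 5 FPKM, the 95th percentile of the log2 ratio was 2.34 and 1.42 in these comparisons. Among those of at least 5 FPKM, which Mael, Ddx4, Sycp1 and Sycp3 reached in Pcgf1-/-+Pcgf1, it was 0.73 and 0.47. Asz1 fell in neither class. Between Pcgf1-/- and WT 2 were higher, Dazl and Asz1, and 0 lower (2.16% and 4.98% of all genes), with a median of -0.05. Only Mael, Ddx4, Sycp1 and Sycp3 had at least 1 FPKM in WT or Pcgf1-/-, and the rest, with Dazl and Asz1, were below. Mael, a factor of the piRNA pathway, had 4.49 FPKM in WT, 4.41 in Pcgf1-/- and 33.4 in the re-expressing cells. Ddx4, a germ cell RNA helicase, had 7.01, 8.88 and 26.1, and Sycp1, of the synaptonemal complex, 1.23, 1.17 and 5.72. Sycp3, of the same complex, had 6.64, 3.50 and 7.93, and is the gene not called against WT. The list together had 23.4 FPKM in WT, 22.2 in Pcgf1-/- and 96.2 in the re-expressing cells. The germline genes, Dnmt3l and the intronic Tet2 start all had their highest level in Pcgf1-/-+Pcgf1, as did Tet1, Dnmt3b and Dppa3. A relation between any of them was not tested.

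**Figure D5:**
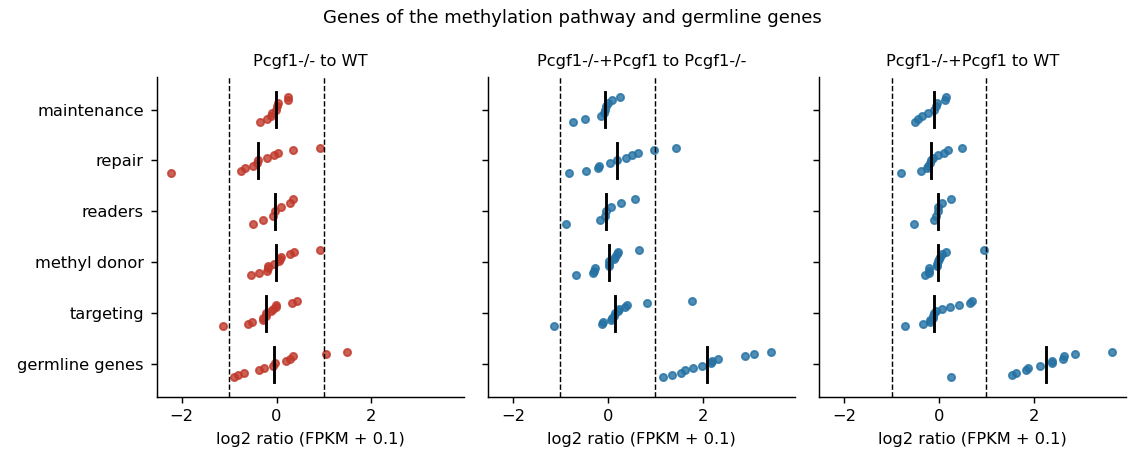
Log2 ratio of FPKM + 0.1 for the genes of the 5 pathway lists and the germline list in the 3 comparisons, with black bars at the medians and dashed lines at 2-fold. All 12 germline genes lie right of 2-fold in the middle panel and 11 in the right panel, with medians of 2.08 and 2.26.

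Other cells in the culture can add to these values, and in bulk RNA fewer cells of a type and less RNA per cell cannot be told apart. Of 13 fibroblast markers 10 were above 0 in some sample, Postn and Fap were at 0 in all, and 1 lay in a joined locus. Together they had 21.4 FPKM in WT, 13.0 in Pcgf1-/- and 21.8 in the re-expressing cells, mostly from Thy1 (14.2, 6.39 and 13.5), with 4 of 12 lower and 0 higher beyond 2-fold in Pcgf1-/- against WT (4.98% and 2.16% of all genes). Others had higher values in Pcgf1-/- that were not called on FPKM + 0.1, among them Dcn (0.352 FPKM in WT and 0.779 in Pcgf1-/-), Twist1 (2.09 and 3.19) and Loxl1 (1.41 and 1.80). Between Pcgf1-/-+Pcgf1 and Pcgf1-/-, 4 of the 12 fibroblast markers were higher and 1, Twist1, was lower (6.35% and 2.22% of all genes). Between Pcgf1-/-+Pcgf1 and WT, 2 were higher and 2 lower (3.99% and 2.36%). The fibroblast sum was lowest in Pcgf1-/-, as were Dnmt3a, Gadd45g, Dppa3, Otx2 and Nanog. The primed epiblast markers, 4 of 6 measured, summed to 3.28, 1.58 and 2.72, mostly from Otx2 (2.35, 0.382 and 1.66), and Otx2 was the 1 of 4 called, with log2 ratios of -2.35 for Pcgf1-/- to WT and 1.87 for Pcgf1-/-+Pcgf1 to Pcgf1-/-. Of all genes, 4.98% were lower in the first of these comparisons and 6.35% were higher in the second. The 6 primitive endoderm markers summed to 2.22, 2.73 and 3.002. Of these, Gata6 and Sox7 were higher beyond 2-fold in Pcgf1-/- than in WT (log2 ratios of 1.11 and 1.08, beside 2.16% of all genes). Gata6 and Sox17 were lower in the re-expressing cells than in Pcgf1-/- (-1.16 and -1.22, beside 2.22%). Sox7 was higher in the re-expressing cells than in WT (1.62, beside 3.99%). All of these were under 1 FPKM. Nanog, an ES cell marker, had 68.2, 46.3 and 123 FPKM and was the 1 of 8 ES cell markers called, between Pcgf1-/-+Pcgf1 and Pcgf1-/-, where 10.8% of genes with at least 1 FPKM were called. The part of these markers in the levels of the 9 genes was not tested.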

How the data were processed

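Poly-A RNA of 3 ES cell samples, 1 per genotype, was sequenced as paired ends. The authors deposited 1 list per sample of transcript events (first and last exons, skipped exons, alternative exon ends) with an FPKM per event. The submitters' processing notes name TopHat2 2.0.12, Cufflinks 2.2.1, HTSeq 0.6.0 and mm10, and the program that listed the events is not given in the sources used here. No counts were in these lists, so no count test was run and the depth is unknown.

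For each gene the larger of the summed FPKM of first and of last exons was used, and rows with several names were left out except for Dnmt3b and Dnmt3l, whose first exons were used. Ratios were taken on FPKM + 0.1, which understates differences of low genes, and called beyond 2-fold with no test. Start sites within 500 bases were taken as 1. Where an exclusion was listed with several flanks it was counted once. Positions are those of mm10, with genes from GENCODE vM21 and promoters from RefSeq on GRCm38.p6. The 9 genes and all lists were chosen with earlier results of these data known. Named were the 9 genes, Pcgf1, up to 4 genes per list with the largest ratio of Pcgf1-/- to WT among those of at least 1 FPKM, and the 3 genes most like Dnmt3a; marker genes and Dazl, Asz1 and Cxxc4 were named after their values were seen. Alternatives were other pseudocounts (0.01 and 1), a median-of-ratios scaling, first or last exons only, a filter at 1 FPKM and start-site distances of 50 and 2000 bases. Calling was tested on simulated data. Python 3.11.15, numpy 2.4.6, pandas 2.3.3 and matplotlib 3.10.9 were used.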

Additional observations from a re-analysis of the deposited data

How the results depend on the processing

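The count of genes beyond 2-fold between Pcgf1-/-+Pcgf1 and Pcgf1-/- was 2 with first exons only, which adds Tet3, whose first exons are partly unlisted. Between Pcgf1-/-+Pcgf1 and WT it was 2 with the joined loci, an alternative chosen after seeing the data, which adds Dnmt3l. The pathway count for Pcgf1-/- against WT was 3 with first exons only and 3 with last exons only. It was 4 with median-of-ratios scaling (2 higher, Mat2a and Gadd45b at 1.03 each, and 2 lower) against 0 higher and 2 lower before. That scaling shifts all log2 ratios of Pcgf1-/- to WT by 0.11, and turned the sign of 3 ratios of Pcgf1-/-+Pcgf1 to WT, to 0.01 for Dnmt3a, 0.03 for Uhrf1 and 0.07 for Tet3. Under both other pseudocounts and this scaling no call among the 7 genes changed. With last exons only, Dnmt3a and Tdg could not be called, since their last exons stood at 0 in all 3 samples. With a pseudocount of 1, the germline counts were 10 of 12 against Pcgf1-/- and 8 of 12 against WT, and 0 between Pcgf1-/- and WT. The number of genes with more than 1 used start was 7, and 8 and 6 at distances of 50 and 2000 bases. At 2000 bases the 2 starts of Uhrf1 were 1 site with 100%, and at 50 bases the Tet1 site used most in WT had 0% in Pcgf1-/-+Pcgf1. No paired analysis was possible because each genotype had 1 sample, and no replicate could be left out. Cassette shares had no alternative setting.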
